A study of Rattus norvegicus with 6 samples.

Results

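Meis1, Meis2, Meis3, Pbx2, Pbx3, Pknox1 and Pknox2 encode cofactors of the Hox transcription factors, and their transcripts were measured in rat chondrocytes with and without retinoic acid (RA). The genes were chosen by symbol, 7 of the 18923 genes counted, and all 7 were among the 13438 genes that had enough reads to be tested. Meis1 rose slightly in the RA group and Pknox2 fell, while the differences of the other 5 genes did not pass the test. The CON group held primary chondrocytes of wild-type female Sprague-Dawley rats, isolated 24 h after birth and used at passage 1 or 2, that were kept for 24 h in high-glucose DMEM with fetal bovine serum and penicillin-streptomycin. The RA group held the same kind of cells in the same medium with 1 µM all-trans retinoic acid for 24 h. Each group had 3 samples, which the study's methods call independent without saying whether they came from separate animals or cultures, so that p-values measure only the spread between these samples. A single dose and a single time were sampled, in cells that had already been passaged.

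Meis, Pbx and Pknox proteins belong to the TALE class of homeodomain proteins, whose homeodomain carries a short extra loop. Pbx proteins pair with Hox proteins on DNA, and Meis and Pknox (also called Prep) proteins compete for the amino-terminal part of Pbx, which keeps Pbx in the nucleus and lets larger complexes form. RA, the active form of vitamin A, binds nuclear receptors. It is known to raise Meis transcripts in embryonic cells, and Meis1 and Meis2 mark the proximal part of the growing limb, where RA signalling is high.

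Poly(A) RNA was sequenced, and each gene was given as a number of reads and as an FPKM value, which divides the number of reads by gene length and by the total of the sample. Totals ran from 29370025 to 38007486 reads per sample. Markers of the labelled cell type were abundant, with a summed level of 19 chondrocyte genes of 9676 to 11906 FPKM in CON and 6022 to 6405 FPKM in RA, and 18 of these 19 genes fell in edgeR's test, in which 5.31% of all genes tested rose and 4.5% fell. The 10 fibroblast and perichondrium genes summed to 5005 to 6367 FPKM in CON and 6332 to 6709 in RA (2 rose and 1 fell), and the 4 smooth muscle genes to 475 to 517 and 385 to 425 (1 fell). Markers of other cell types were far lower. The 10 macrophage genes summed to 14.1 to 15.1 FPKM in CON and 16.5 to 17.9 in RA, without overlap, although 0 of the 4 tested passed, and most of the sum was Cd14 (12.9 FPKM in CON and 15.3 in RA). The 7 osteoblast genes summed to 12.0 to 13.6 and 12.5 to 13.3 FPKM, while of the 5 tested Ibsp rose (log2 fold change 1.47) and Alpl, named after its value was seen, fell (-0.42). The 7 skeletal muscle genes summed to 9.25 to 10.9 and 8.97 to 10.9 FPKM, while of the 3 tested Tnnt3 fell (-1.0), and Myod1, which had 4 to 7 reads in CON and 17 to 25 in RA and so was tested only through its RA reads, had 1.93. These smaller counts turned on single samples: the fibroblast list had 1 rise without CON sample 2 or RA sample 2 or 3 and 3 rises without CON sample 1 or 3, the smooth muscle list had 2 falls without CON sample 1, the osteoblast list had 2 rises without CON sample 1 or RA sample 2, the fall of Alpl was lost without CON sample 2 or any RA sample, and both skeletal muscle calls were lost without CON sample 2 or RA sample 1 or 2. Neuron genes (8, at 1.06 to 2.02 and 1.02 to 1.40 FPKM) and endothelial genes (6, at 0.0678 to 0.327 and 0.118 to 0.279 FPKM, with Emcn at 0 reads) were close to absent. The part of these shifts in the values below was not tested, and in bulk RNA fewer cells of a type and less RNA per cell cannot be told apart.

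In each group the levels came in the same order, from Pbx2 (19.3 ± 0.185 FPKM in CON and 20.1 ± 0.591 FPKM in RA, mean ± SD over 3 samples) through Pbx3, Pknox1, Meis1, Meis2 and Meis3 down to Pknox2 (0.904 ± 0.0195 and 0.557 ± 0.0335). The sample ranges of neighbouring genes in this order were separate except for Meis1 and Meis2 in CON. Pbx2 and Pbx3 supplied most of this summed level, with a sum of 32.7 FPKM ± 1.24 in CON and 31.1 ± 0.880 in RA, against 7.65 ± 0.540 and 9.62 ± 0.510 for the 3 Meis genes and 7.97 ± 0.452 and 8.64 ± 0.276 for the 2 Pknox genes. The sum over all 7 genes was 48.3 FPKM ± 2.07 in CON and 49.4 ± 1.39 in RA, a difference smaller than the SD of the CON group.

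**Figure D1:**
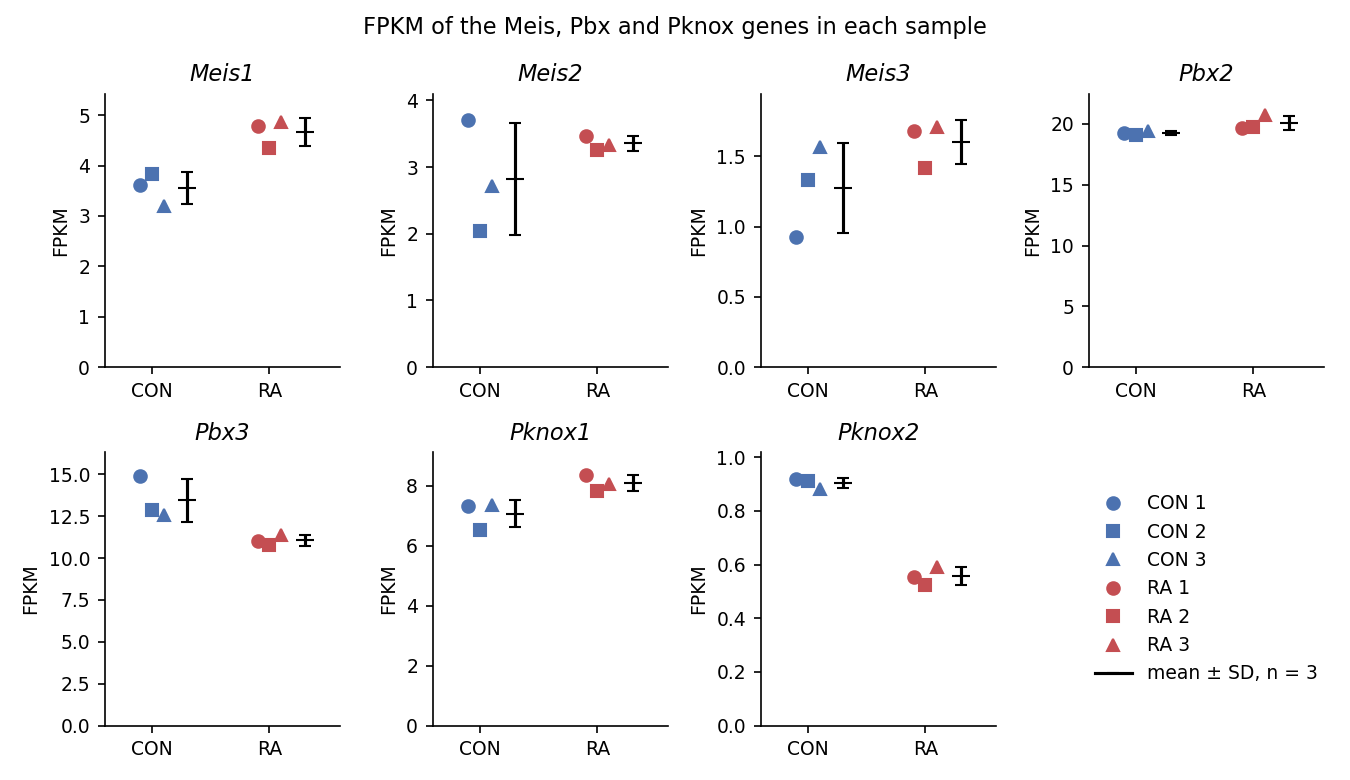
FPKM of each gene in the 3 CON and 3 RA samples, with 1 panel per gene, vertical axes from 0, and the mean ± SD beside the points. The groups were separate for Meis1, Pbx2, Pbx3, Pknox1 and Pknox2, and the CON samples of Meis2 and Meis3 were spread widely.

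Among the 7 genes, 2 passed edgeR's quasi-likelihood test at a Benjamini-Hochberg adjusted p below 0.05, against 9.82% of all genes tested. Taken by direction, 1 of the 7 rose, against 5.31% of all genes tested, and 1 fell, against 4.5%. Differentially expressed genes (DEGs), which here also needed a log2 fold change larger than 0.58 up or down, numbered 1 of the 7, against 4.96% of all genes tested. The study's methods pair this fold threshold with an unadjusted p below 0.05, while its results name a false discovery rate below 0.05. None of the 7 was a DEG that rose, against 2.67% of all genes, and 1 was a DEG that fell, against 2.29%. The FPKM values of the groups did not overlap for 5 of the 7 genes, against 32.2% of all genes tested, and with CPM, which scales reads only by the total and edgeR's TMM factor of each sample, they did not overlap for 4, against 31.9%. An unadjusted p below 0.05 was found for 4 of the 7 genes, against 24% of all genes tested. The median log2 fold change, RA minus CON, was 0.18 over the 7 genes and -0.0057 over all genes tested, and 5 of the 7 values were above 0. The median of the 7 depends on single samples: it is the value of Pknox1, which was 0.12 without CON sample 2, where Meis2 had 0.047.

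Meis1 (ENSRNOG00000004606) encodes a homeodomain protein that binds DNA together with Pbx and some Hox proteins. Samples 1 to 3 of the CON group had levels of 3.61, 3.83 and 3.20 FPKM, and samples 1 to 3 of the RA group, in that order here and below, had 4.78, 4.36 and 4.87 FPKM, from 390 to 530 reads per sample. Every RA sample lay above every CON sample, and the gap between the groups was narrow, from 3.83 in the highest CON sample to 4.36 in the lowest RA sample. The mean rose from 3.55 ± 0.321 to 4.67 ± 0.273 FPKM, a log2 fold change of 0.38 (SE 0.0991, 95% confidence interval 0.16 to 0.61, edgeR's adjusted p = 0.0463). Meis1 was therefore not a DEG, and the fitted fold was 1.31. The call was close to the threshold: it was kept without CON sample 1 (0.40, adjusted p = 0.0211) and lost without CON sample 2 (0.44, adjusted p = 0.0813), CON sample 3 (0.32, adjusted p = 0.0985), RA sample 1 (0.37, adjusted p = 0.156), RA sample 2 (0.43, adjusted p = 0.103) or RA sample 3 (0.35, adjusted p = 0.196).

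The promoter of Meis1 is shown because this gene rose with RA. RefSeq's annotation of the rat assembly GRCr8 gives 1 start for Meis1 in the table used here, and the 250 bases before it lie at chr14:97495084-97495333 on the minus strand. The counts were made on another assembly, Rnor_6.0, and do not show which start was used.
Meis1: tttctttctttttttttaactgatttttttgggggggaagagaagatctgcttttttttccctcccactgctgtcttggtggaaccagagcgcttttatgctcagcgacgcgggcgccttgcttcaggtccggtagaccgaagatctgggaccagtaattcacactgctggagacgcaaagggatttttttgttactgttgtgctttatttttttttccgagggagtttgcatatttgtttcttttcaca
This stretch and the 50 bases after the start held, on either strand, none of the motifs searched: AGGTCA, the half-site bound by RA receptors, direct repeats of half-sites with spacers of 1, 2 or 5 bases, the Meis and Pknox motif TGACAG, the joint Pbx and Meis motif TGATTGAC, whose end overlaps the start of TGACAG, and the joint Pbx and Hox motif TGATNNAT. In the repeats a half-site was AGGTCA or one of its variants, namely GGGTCA or else AGTTCA or else GGTTCA. The Meis1 window was also poor in G and C, with 43.7% against a median of 51.7% over the 33469 windows of the table.

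Meis2 (ENSRNOG00000004730), a close paralog of Meis1 with the same mode of binding, had 3.71, 2.04 and 2.71 FPKM in CON and 3.47, 3.26 and 3.33 FPKM in RA. The 3 RA samples lay close together, inside the range of the CON samples, of which CON sample 1 was the highest of all 6 and CON sample 2 the lowest. The coefficient of variation of its TMM-scaled CPM was 29.6% in CON and 2.70% in RA, where counting error alone would give 5.88% and 5.65%. The log2 fold change was 0.24 (SE 0.196, 95% confidence interval -0.21 to 0.69, edgeR's adjusted p = 0.509), and it rested on single CON samples, since it was 0.47 without CON sample 1, which passed the test (adjusted p = 0.0384), and 0.047 without CON sample 2 (adjusted p = 0.891).

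Meis3 (ENSRNOG00000021390), the least abundant of the 3 Meis genes, is best known from patterning of the early hindbrain. It had 0.927, 1.33 and 1.56 FPKM in CON and 1.68, 1.42 and 1.71 FPKM in RA, from 56 to 117 reads per sample. CON sample 1 was the lowest for Meis3, the sample that was the highest for Meis2, and RA sample 2 lay within the CON range. The log2 fold change of 0.31 had an SE of 0.224 and a 95% confidence interval from -0.20 to 0.82 (edgeR's adjusted p = 0.442), which held both 0 and 0.58. Without CON sample 1 it was 0.12, and without CON sample 3 it was 0.50.

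Pbx2 (ENSRNOG00000000440), a broadly expressed Pbx gene, was the most abundant of the 7 and had the smallest fold change, with 19.2, 19.1 and 19.5 FPKM in CON and 19.7, 19.8 and 20.7 FPKM in RA. The RA samples were all above the CON samples on this scale by a small margin, while the groups overlapped once edgeR's scaling factors were applied. The log2 fold change was 0.047 (SE 0.0597, edgeR's adjusted p = 0.678), and its 95% confidence interval from -0.090 to 0.18 lay well inside the limits of 0.58 in either direction. From 1701 to 2184 reads per sample stood behind these values.

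Pbx3 (ENSRNOG00000022162), a Pbx gene with roles in the developing limb and in leukaemia cells that express Hoxa genes and Meis1, had 14.9, 12.9 and 12.6 FPKM in CON and 11.0, 10.8 and 11.4 FPKM in RA. Every RA sample was below every CON sample, and CON sample 1 stood above the other CON samples. The log2 fold change was -0.30 (SE 0.0803, 95% confidence interval -0.48 to -0.11), and edgeR's adjusted p of 0.0561 missed the threshold. It passed in DESeq2 (-0.30, adjusted p = 0.0294), in edgeR with a replicate block (-0.29, adjusted p = 0.0468) and, at a smaller difference, without CON sample 1 (-0.22, adjusted p = 0.0213). Neither Meis2 nor Pbx3 had a promoter entry in the table used here.

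Pknox1 (ENSRNOG00000001184), which encodes the broadly expressed partner of Pbx also known as Prep1, had 7.31, 6.54 and 7.35 FPKM in CON and 8.36, 7.83 and 8.07 FPKM in RA. The groups did not overlap, and the lowest RA sample exceeded the highest CON sample by little. The log2 fold change was 0.18 (SE 0.0754, 95% confidence interval 0.0078 to 0.35) and did not pass the test (unadjusted p = 0.0425, edgeR's adjusted p = 0.191).

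Pknox2 (ENSRNOG00000028856) encodes a second Prep protein, which binds Pbx as Pknox1 does and is known from a narrower set of tissues. It was the least abundant of the 7 genes and the DEG among them, with 0.919, 0.912 and 0.882 FPKM in CON and 0.553, 0.526 and 0.592 FPKM in RA. The CON samples were nearly equal, the RA samples were all far below them, and no value lay between 0.592 and 0.882. The mean was 0.904 ± 0.0195 FPKM in CON and 0.557 ± 0.0335 FPKM in RA, and the fitted level fell by 38.9%, a log2 fold change of -0.71 (SE 0.153, 95% confidence interval -1.06 to -0.36, edgeR's adjusted p = 0.0219). Only 64 to 139 reads per sample stood behind this, and the coefficient of variation of 1.17% for TMM-scaled CPM in CON was below the 9.00% that counting error alone gives, so the closeness of the CON samples understates the error.

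The size of the fall in Pknox2 hardly moved when 1 sample was left out, from -0.76 to -0.67, but the call was lost in 5 of those 6 fits. It was kept without CON sample 1 (adjusted p = 0.0203), and edgeR's adjusted p was 0.0750 and 0.0525 when CON sample 2 or 3 was left out and 0.0835, 0.100 and 0.0670 when RA sample 1, 2 or 3 was. Each of these fits had 1 sample fewer. In limma the log2 fold change was -0.61 with 0.1 added to each FPKM (adjusted p = 0.0533) and -0.29 with 1 added, a constant larger than the gene's own level.

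The starts of Pknox2 are shown because the fall of this gene was the largest of the 7 and because both of its windows held the motif TGACAG, which Meis and Pknox proteins bind. RefSeq's annotation of GRCr8 gives 2 starts in the table used here. The stretch before the first lies at chr8:44979752-44980004 and 30 bases around the match in the window of the second at chr8:44889367-44889396, both on the minus strand, with TGACAG in capitals.
Pknox2, first start: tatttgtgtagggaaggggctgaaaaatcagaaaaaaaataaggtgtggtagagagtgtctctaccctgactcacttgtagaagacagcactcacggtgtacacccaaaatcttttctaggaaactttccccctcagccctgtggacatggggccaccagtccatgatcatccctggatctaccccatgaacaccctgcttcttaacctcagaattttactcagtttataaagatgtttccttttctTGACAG
Pknox2, second start: ctttccttagggTGACAGttcagatttaat
At the first start the motif lay across the start itself, with 3 bases before it and 3 after, and at the second it lay 198 to 193 bases upstream. TGACAG was present in 19% of all 33469 windows of 300 bases, searched on both strands, and in 2 of the 7 windows of the 5 genes with an entry, so that a match is a common event. None of the 7 windows held AGGTCA (16.2% of all windows), TGATTGAC (0.618%), TGATNNAT (9.1%) or half-site repeats with spacers of 1 (0.233%), 2 (0.17%) or 5 bases (0.382%). These matches describe letters only, and motifs outside the windows were not searched.

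**Figure D2:**
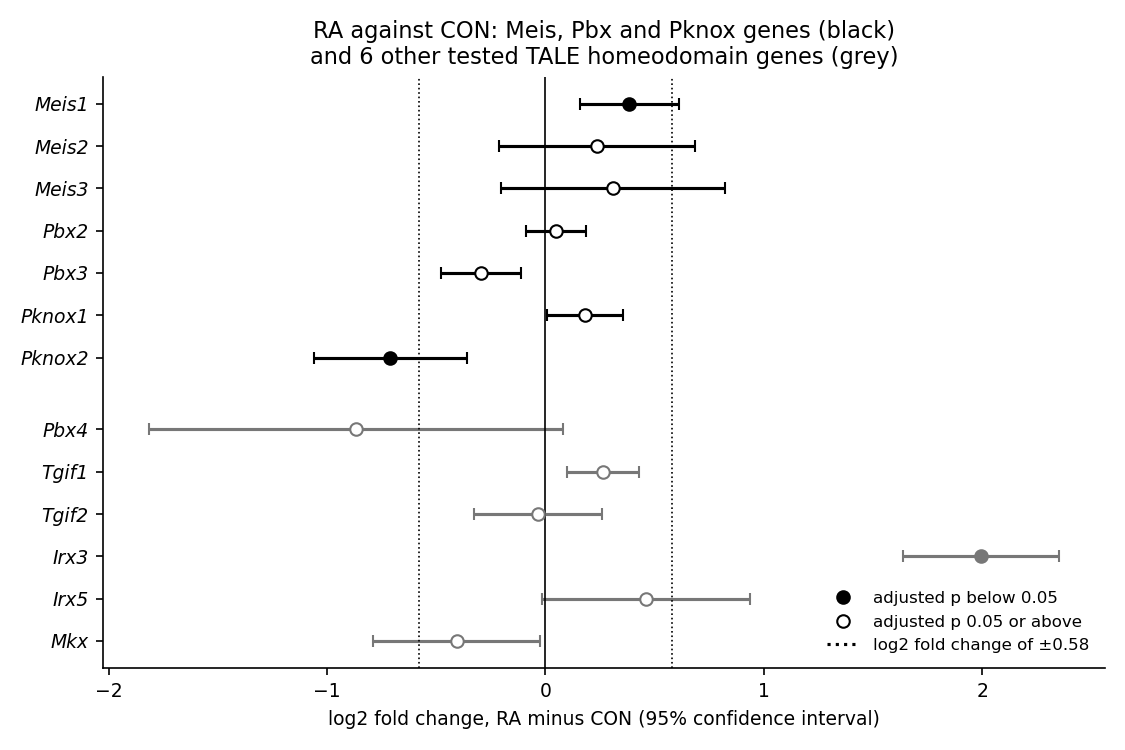
Log2 fold change, RA minus CON, with 95% confidence interval for the 7 Meis, Pbx and Pknox genes (black) and 6 other tested TALE genes (grey), from 3 CON and 3 RA samples, with filled points for an adjusted p below 0.05 and dotted lines at 0.58 in either direction. Meis1, Pknox2 and Irx3 are filled, and the interval of Pbx2 lies between the dotted lines.

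Within a sample, the share of each gene in the summed FPKM of the 7 does not depend on scaling between samples. Pbx3 took 29.5%, 27.6% and 26.4% of the sum in CON and 22.2%, 22.5% and 22.4% in RA, which made it the gene with the largest move, by -5.42 percentage points. The share of Meis1 was 7.35% ± 0.787 in CON and 9.45% ± 0.309 in RA (SD, n = 3), that of Pknox1 14.6% ± 0.702 and 16.4% ± 0.479, and that of Pknox2 1.87% ± 0.0736 and 1.13% ± 0.0371. For these 4 genes the shares of the groups did not overlap, and no such count was made over all genes. Each share restates the FPKM values above, which did not overlap between the groups for 32.2% of all genes tested. The shares of Meis2 (5.80% ± 1.48 and 6.80% ± 0.220), Meis3 (2.66% ± 0.743 and 3.24% ± 0.241) and Pbx2 (39.9% ± 1.66 and 40.6% ± 0.777) overlapped between the groups. Summed over the 3 Meis genes, the level was 8.25, 7.21 and 7.48 FPKM in CON and 9.93, 9.03 and 9.91 FPKM in RA, again without overlap.

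**Figure D3:**
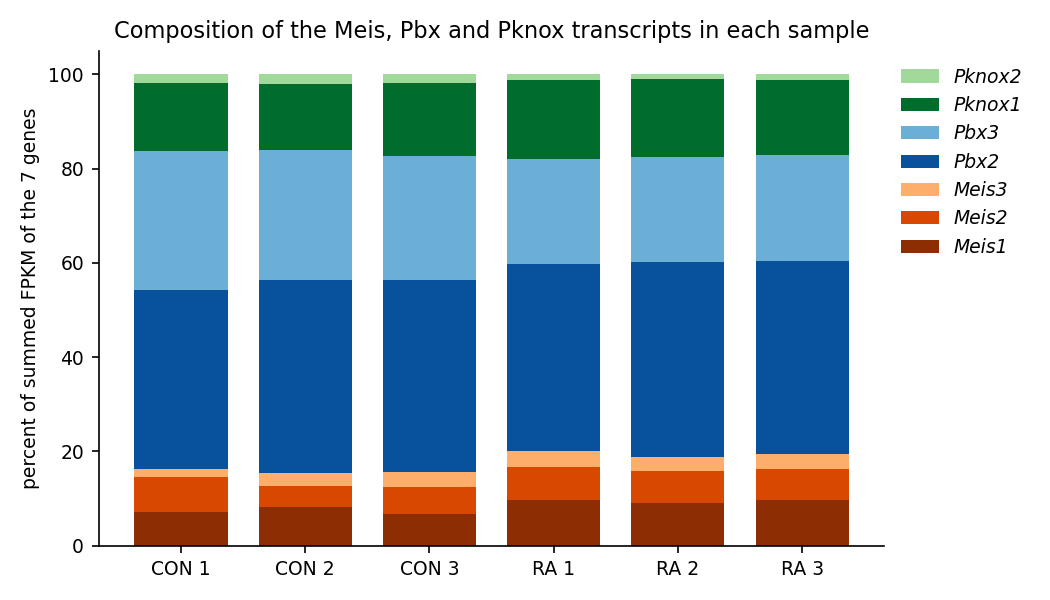
Stacked bars of the share of each gene, in percent of the summed FPKM of the 7 genes, for the CON samples 1 to 3 and the RA samples 1 to 3. The band of Pbx3 narrows from between 26.4% and 29.5% in CON to between 22.2% and 22.5% in RA, and the Meis bands together are wider in RA.

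The ratios between paralogs set genes of like function side by side in the same sample. The ratio of Pknox1 to Pknox2 was 7.95, 7.17 and 8.33 in CON and 15.1, 14.9 and 13.6 in RA, so the groups were far apart, with means of 7.82 ± 0.592 and 14.5 ± 0.811. The ratio of Pbx2 to Pbx3 was 1.29, 1.49 and 1.55 in CON and 1.79, 1.83 and 1.82 in RA, again without overlap. For both ratios the exact two-sided permutation test gave p = 0.1, the smallest that 3 against 3 samples allow, and an adjusted p of 0.25 over the 5 ratios compared, so neither could pass in this design. The ratios of Meis1 to Meis2 (1.34 ± 0.473 and 1.39 ± 0.0638, exact permutation p = 0.7), Meis1 to Meis3 (2.94 ± 0.926 and 2.92 ± 0.127, exact permutation p = 0.9) and Meis2 to Meis3 (2.42 ± 1.37 and 2.11 ± 0.176, exact permutation p = 1) overlapped, and their spread in CON was several times that in RA.

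**Figure D4:**
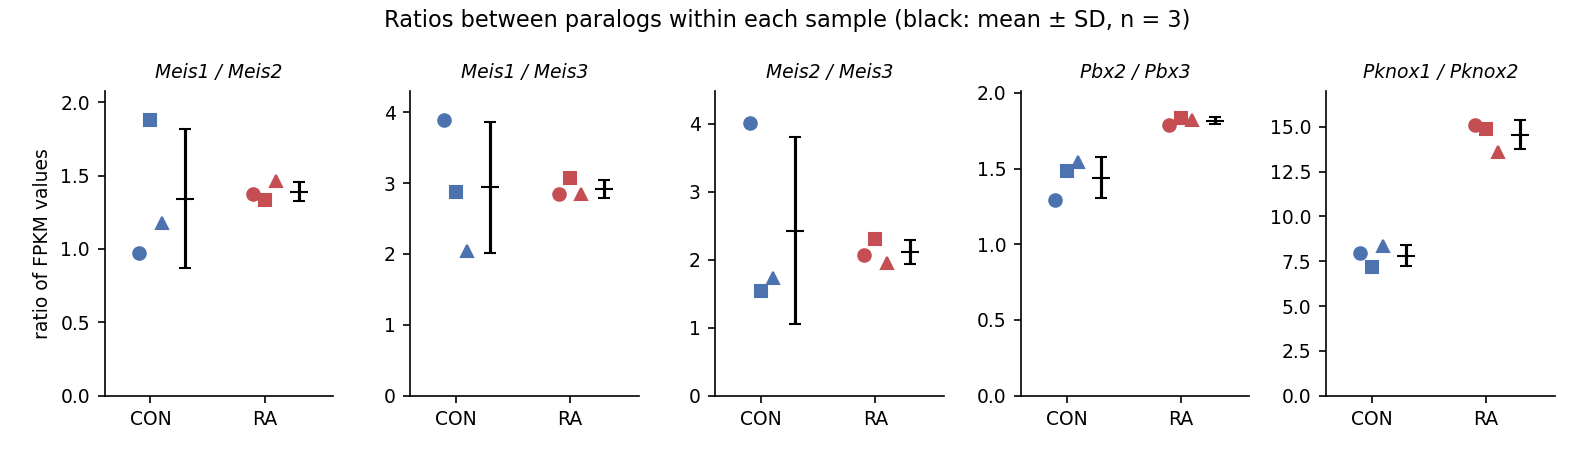
Ratio of FPKM values between paralogs in each sample, with 1 panel per pair, vertical axes from 0, CON in blue and RA in red, and the mean ± SD in black. The groups are separate for Pbx2 / Pbx3 and Pknox1 / Pknox2, and the 3 Meis ratios overlap.

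The genes whose pattern over the 6 samples came closest to Meis1, by the root mean square difference in centred log2 CPM among 11341 genes with a mean FPKM of at least 1, were Lipg (0.0453), Rbpms2 (0.0486) and Tpd52 (0.0497). Those closest to Pknox2 were Rtl3 (0.0373), Pik3ip1 (0.0387) and Slc25a33 (0.0624). The likeness was what chose these genes, so their own fold changes add nothing to it, and Lipg (adjusted p = 0.189) and Rbpms2 (adjusted p = 0.105) did not pass edgeR's test.

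The other genes of the TALE class gave a wider range of values. Of 11 genes listed, 7 were tested, 1 rose and 0 fell, beside 5.31% and 4.5% of all genes tested, with a median log2 fold change of 0.084 against -0.0057 over all genes tested. The gene that rose was Irx3, an Iroquois gene known from patterning of the limb and nervous system, from 1.31 ± 0.133 to 5.28 ± 0.553 FPKM, a log2 fold change of 2.00 (SE 0.156, edgeR's adjusted p = 1.53e-04). Its log2 fold change exceeded that of each of the 7 Hox cofactors described here, and this difference between genes was not tested. Pbx4 had 5 to 20 reads per sample and a log2 fold change of -0.87 (adjusted p = 0.247). The corepressors Tgif1 and Tgif2, which bind motifs like those of Meis, had 0.26 (adjusted p = 0.0564) and -0.036 (adjusted p = 0.896), the tendon factor Mkx had -0.41 (adjusted p = 0.184) and Irx5 had 0.46 (adjusted p = 0.224). Tgif1 passed in DESeq2 (adjusted p = 0.0381), with a replicate block (adjusted p = 0.0434) and without CON sample 1 (0.31, adjusted p = 0.00353), and Mkx passed without CON sample 1 (-0.54, adjusted p = 0.0218). Irx1 and Irx2 had too few reads to be tested, Irx4 had none, and Irx6 was not matched.

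Proteins known to bind Meis or Pbx, or to serve them as coactivators and corepressors were taken as a further list. Of 10 such genes, all tested, 0 passed edgeR's test or DESeq2's, with 1 unadjusted p below 0.05 in edgeR and 2 in DESeq2, and their median log2 fold change was 0.046, beside -0.0057 over all genes tested, of which 9.82% passed and 24% had an unadjusted p below 0.05 in edgeR. The lowest value was -0.28 for Crtc3 (adjusted p = 0.175), a CREB coactivator, while Pbxip1, which binds Pbx proteins and keeps them from DNA, had -0.091 (adjusted p = 0.547). Without CON sample 1 edgeR gave 5 unadjusted p-values below 0.05 in this list, and without CON sample 2 or RA sample 1 or 2 it gave 0. The Hox genes themselves, the partners of these cofactors, had 16 of 32 members tested, of which 0 passed edgeR's test or DESeq2's, with 0 at an unadjusted p below 0.05 in edgeR, and log2 fold changes from -0.57 to 0.37.

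Among 34 tested transcription factors of limb patterning, 5 rose and 1 fell, beside the same 5.31% and 4.5% of all genes tested, with a median log2 fold change of 0.14, and without RA sample 3 the number that rose was 3. The DEGs were Pax1 (1.84), Twist2 (0.92) and Prrx2 (0.64), which were higher in RA, and Dlx5 (-0.89), which was lower. Of 16 tested genes for retinoid receptors, binding proteins and enzymes, 6 rose and 1 fell, again beside 5.31% and 4.5%, with a median log2 fold change of 0.21. The gene that fell, named here after its values were seen, was the retinol dehydrogenase Rdh10 (-0.49), and no gene of the list fell once CON sample 2 or 3 or any of the RA samples was removed. The RA-degrading enzymes Cyp26a1 and Cyp26b1 had 3.35 and 2.65, so these transcripts, which RA is known to induce, moved by log2 differences several times the 0.38 of Meis1 in the same samples.

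**Figure D5:**
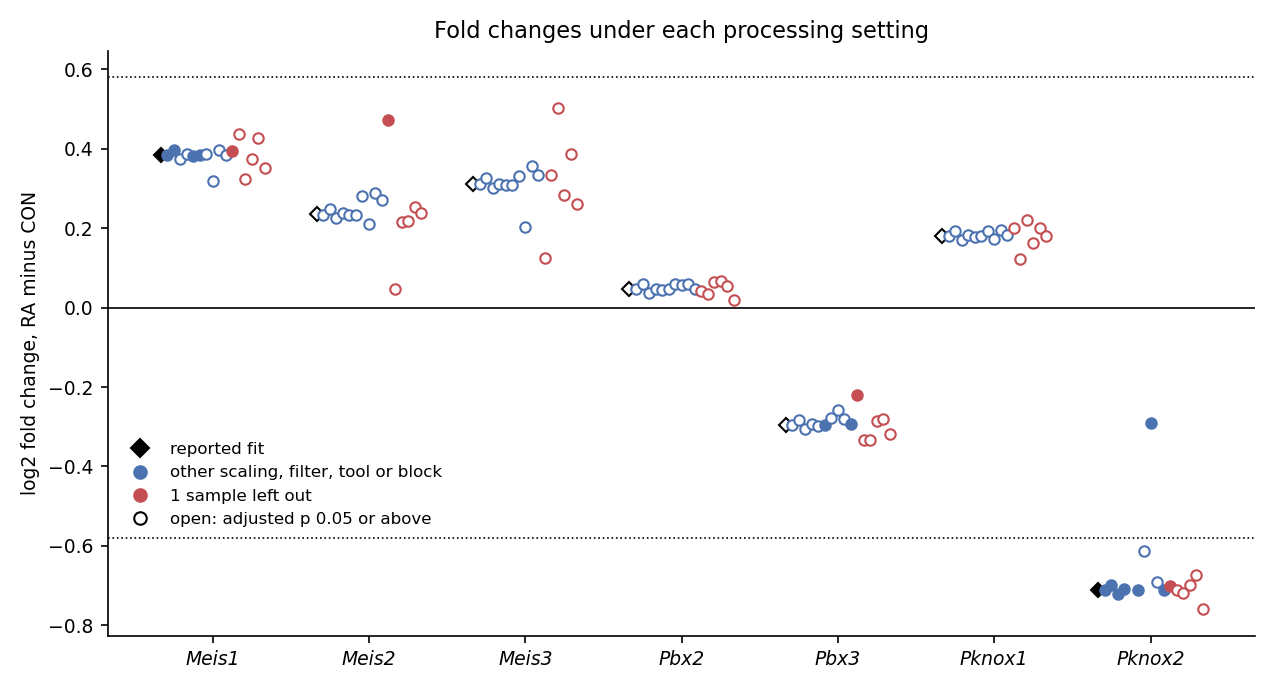
Log2 fold change of each gene, RA minus CON, under the fit reported here (black diamonds), under another scaling, filter, tool or replicate block (blue) and with 1 sample left out (red), with open symbols for an adjusted p of 0.05 or above and dotted lines at 0.58 in either direction. Every value keeps the sign of its gene, the values of Meis2 run from 0.047 to 0.47, and those of Pknox2 lie below -0.58 except with 1 added to each FPKM (-0.29).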

How the data were processed

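The authors deposited, per sample, unnormalized whole-number read counts and FPKM values for each gene. Per the labels, HISAT2 and HTSeq 0.13.5 were run with build Rnor_6.0. The FPKM divide each count by gene length and by the summed counts of the sample. Neither the strand setting nor the handling of reads shared by paralogs or overlapping genes is given in the sources used here. Counts were fitted with edgeR 4.0.16 in R 4.3.3 (TMM, filterByExpr with a minimum count of 10, glmQLFit and glmQLFTest, no covariate, all 6 samples) and p-values adjusted by Benjamini-Hochberg over 13438 genes. A gene passed at an adjusted p below 0.05, and a DEG also had a log2 fold change beyond 0.58. Standard errors came from the F statistic. The test was also run on simulated counts drawn with edgeR's own fitted spread, which cannot show how far a call depends on single samples. A count of 3, the most that 0 reads allow, equals 0.0789 to 0.102 CPM, for counting error only. DESeq2 1.42.0 and limma 3.58.1 on log2(FPKM + a constant) were alternatives. The members and gene lists were chosen with earlier results of these data known. All 7 members are named, together with other TALE genes, interacting genes of interest and at most 3 rises and 3 falls per list among DEGs. Nearest patterns were named for members that passed. Crtc3 and Pbxip1 were picked from their list after their values were seen. Promoter windows, from 250 bases before to 50 after a start, came from RefSeq (GRCr8), and 5 of 7 members matched. A few listed genes are left out of the text.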

Additional observations from a re-analysis of the deposited data

How the results depend on the processing

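Meis1 kept its direction throughout and missed the threshold with upper quartile scaling (0.37, adjusted p = 0.0518), no filter on low counts (0.39), limma with 0.1, 1 or 0.01 added (0.39, 0.32 and 0.40) and a replicate block (0.39, adjusted p = 0.0621). Over 16 alternatives its adjusted p ran from 0.0157 to 0.196 and passed in 5. Pknox2 missed it in limma with 0.1 (-0.61) or 0.01 added (-0.69), and under the filter on mean FPKM (1 or more) it was not tested. It passed in 8 of 15 alternatives (adjusted p 0.00880 to 0.100). Pbx3 passed in DESeq2 (-0.30) and with the block (-0.29, adjusted p = 0.0468), and in 3 of 16 alternatives (0.0213 to 0.208).

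When single samples were left out, the log2 fold change ran from 0.32 to 0.44 for Meis1, 0.047 to 0.47 for Meis2, 0.12 to 0.50 for Meis3, 0.020 to 0.067 for Pbx2, -0.33 to -0.22 for Pbx3, 0.12 to 0.22 for Pknox1 and -0.76 to -0.67 for Pknox2. Without CON sample 1, 4 of the 7 genes passed (2242 of all genes, against 1319), and in each of the other 5 such fits 0 passed, where 4.83% to 9.67% of all genes did. The number of DEGs among the 7 genes, 1 as reported, ran from 0 to 1 in these fits, was 0 under the filter on mean FPKM and in limma with 0.1, 1 or 0.01 added, and was 2 without the fold threshold. Over all genes the number of DEGs, 667 as reported, ran from 480 to 755 and was 433 in limma with 1 added, 1017 with an unadjusted p and 1319 without the fold threshold. The share of Pknox2 fell by 0.99 percentage points with CPM in place of FPKM and by 0.75 as reported, and that of Pbx2 ran from -0.21 to 1.28 points with samples left out. No value of a called gene changed sign.

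The replicate numbers are shared by the groups, but same-numbered samples deviated together little (correlations of 0.0928, -0.0123 and 0.0118), and CON samples 2 and 3 correlated best with another number. The block gave 1595 genes that passed. Reads per sample of 56 to 139 limit Meis3 and Pknox2.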
